A study of Mus musculus with 45 samples.

Results

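Copy number along mouse chromosome 8 was measured in 45 mammary tumors from 8 genetically engineered models. The members were all non-control probe regions that the array files place on chromosome 8 of the mouse genome build mm8, without 7 regions of 3 genes that were not analysed here. This gave 2148 of the 42235 regions of the array, and 40666 of the latter lie on autosomes. They run from position 3151837 to 132061985, a length of 128.9 Mb, with a median spacing of 18.6 kb and a largest gap of 3.72 Mb. A gene name of the array design is attached to 1862 of them, and 286 have none. The names cover 1058 genes, of which 1043 had a value in every tumor. Outlier spots were left out, so that 2086 regions remained in the tumor Brcap53_682 and between 2143 and 2148 in the others, and the shares of a tumor's regions below are of those that remained.

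Each tumor was hybridized once, on its own 2-colour Agilent 44K comparative genomic hybridization array, against reference DNA that the labels call pooled mouse spleen and, in other fields, normal mammary tissue. All were primary mammary tumors of female mice. The BRCA1-/-;p53+/- tumors (n = 5), called Brca1-deleted below, carried BRCA1fl/fl, p53+/- and MMTV-cre, so that Brca1 was deleted where the mouse mammary tumor virus (MMTV) promoter drives Cre recombinase, in mice with 1 germline p53 allele. The p53-/- tumors (n = 6) came from p53fl/fl with MMTV-cre and are labelled as transplants. The C3(1)-Tag tumors (n = 5) express the SV40 T/t-antigens from the C3(1) promoter, which is not specific to the mammary gland. The MMTV-Her2/neu (n = 5), MMTV-HRas (n = 5, H-Ras), MMTV-Wnt1 (n = 5), MMTV-PyMT (n = 9) and MMTV-Myc (n = 5, c-Myc) tumors express the named gene from the MMTV promoter. No label says that tumors of a model came from separate mice, so the p-values measure the spread between these samples. Fewer altered cells in a tumor and a smaller change per cell cannot be told apart in DNA of whole tumors.

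Mouse chromosome 8 is a mosaic of stretches that lie on several human chromosomes. It carries genes found in man at the distal end of the long arm of chromosome 13, on the short arm of chromosome 8, on the long arm of chromosome 4, on the short arm of chromosome 19, on the long arm of chromosome 16, and on parts of chromosomes 1 and 10. Several of these stretches are often gained or lost in human breast cancer. Named genes on it include Insr, the insulin receptor, Cdh1, which encodes the adhesion molecule E-cadherin, Ctcf, a protein that shapes chromatin loops, and clusters of beta-defensins and carboxylesterases, families whose gene number varies between inbred strains.

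Every value below is a log2 ratio of Cy3 over Cy5, centred on the median of the autosomal regions of the same array, so that 0 is the level of the average autosome and not a known number of copies. According to the labels Cy5 marks tumor DNA and Cy3 marks reference DNA, and the opposite direction was used here. The authors' table lists 397 intervals that hold 20 or more probes and depart from 0 by 0.2 or more, and 383 of these had the sign of Cy3 over Cy5. In addition, 1 of 2 Brca1 regions lay between -5.14 and -1.69 in that direction in the 5 tumors in which Brca1 was deleted. With the dyes as labelled every gain described here becomes a loss and every loss a gain.

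Some arrays need to be read with care. The noise of single regions, estimated from neighbours, had an SD of 0.16 to 0.48, and it was above 0.4 on 5 arrays, C_Myc_04004021, P53_2979, P53_5809, PyMT_11567 and PyMT_11570. C3TAg_5RPT correlated with H2N53 over the autosomal bins of 1 Mb with r = 0.96, and C3TAg_7RPT with H2N61 with r = 0.928, although the labels place each pair in different models. The next highest r of any pair was 0.85. Over the chromosome 8 bins alone the r of the first pair was 0.293 and that of the second 0.31. The Wnt1 region of Wnt_4635 was at 0.07, whereas it was between 1.07 and 1.5 in the other MMTV-Wnt1 tumors, so the transgene was not seen in the tumor labelled Wnt_4635. A deletion of p53 was not seen at the 2 regions of Trp53, the gene of p53. The p53-/- tumors P53_1573, P53_2979, P53_5809, P53_5817, P53_5851 and P53_8546 were at -0.64, 0.58, 0.18, 0.04, -0.21 and -0.52 at 69396256 of chromosome 11, and at -0.42, -0.24, -0.53, 0.02, -0.05 and -0.45 at 69399814. Whether either region lies in the floxed part is not given in the sources used here, so these values do not check the label. The counts of gains, losses, called bins and called genes were repeated without Wnt_4635, without the noisy arrays and without the arrays of the 2 near-identical pairs.

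Averaged over all regions, chromosome 8 lay close to the autosomal level in most tumors and departed from it widely in only a few. The Brca1-deleted tumors sat in a narrow range just below 0, with means of -0.08 for Brcap53_503, -0.06 for Brcap53_682, -0.04 for Brca_14, -0.03 for Brca_42 and -0.07 for Brca_54. The MMTV-Myc tumors also held a narrow range, from -0.04 to -0.01. By contrast, the p53-/- tumors reached from -0.31 in P53_1573 to 0.32 in P53_5809, with a median of 0.09. These 2 tumors bound the model on opposite sides of 0, and the values of the other models fall between them except for those of H2NA and Hras_An3_3.

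The MMTV-HRas tumors were at 0.42 in Hras_An3_3, 0.07 in Haras_An5_3RPT, -0.08 in Hras_An2_3, -0.15 in Hras_An4_3 and -0.18 in Hras_An1_3. Thus the highest chromosome 8 mean of the series belonged to a model in which 3 of the 5 tumors were below 0. The MMTV-Her2/neu tumors were at 0.37 in H2NA, 0.15 in H2N61, 0.06 in H2N53, 0.04 in H2N1 and -0.01 in H2N64, so that 1 tumor stood above the other 4. The C3(1)-Tag tumors were at 0.20 in C3TAg_8_RPT, 0.12 in C3TAg_7RPT, 0.10 in C3TAg_5RPT, 0.02 in C3TAg2 and 0.00 in C3TAg4. None of these C3(1)-Tag values was below 0. The MMTV-Wnt1 tumors were at 0.28 in Wnt_4635 and between -0.05 and 0.00 in the other 4. In MMTV-PyMT the lowest tumor was at -0.11, the median at -0.01 and the highest, PyMt342, at 0.13.

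**Figure D1:**
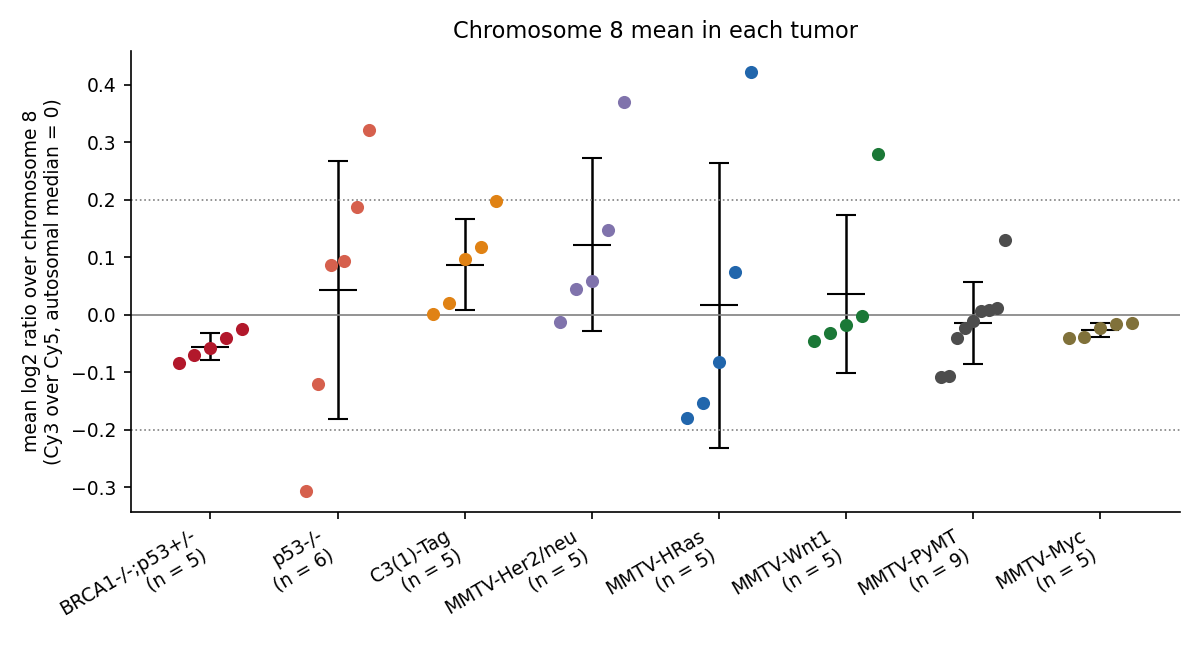
Mean log2 ratio (Cy3 over Cy5, centred on the autosomal median) of the chromosome 8 regions with a value (2086 in Brcap53_682 and at least 2143 in the others) in each of the 45 tumors, by model. Points are tumors, bars are the mean ± SD of a model and dotted lines mark 0.2 and -0.2. The p53-/- and MMTV-HRas tumors spread over both sides of 0, while the 5 BRCA1-/-;p53+/- and the 5 MMTV-Myc tumors lie in narrow ranges below it.

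No model's mean was shown to differ from that of the other tumors. The largest difference was that of MMTV-Her2/neu, with a mean of 0.12 ± 0.15 (SD, n = 5) against 0.01 in the other 40 tumors (two-sided exact permutation test over all assignments of tumors, p = 0.0909, adjusted p over the 8 models = 0.647). It was followed by the Brca1-deleted tumors, with a mean of -0.06 ± 0.02 (SD, n = 5) against 0.03 in the others (exact p = 0.18, adjusted p = 0.647). For the remaining models the exact p lay between 0.273 and 0.915. As background, 12.5% of all pairs of an autosome and a model had an unadjusted exact p below 0.05, and chromosome 8 gave none of its 8. Within slides, the difference of MMTV-Her2/neu was 0.15 over 4 slides (exact p = 0.0347, adjusted p = 0.174), and that of C3(1)-Tag changed sign to -0.06 over 2 slides (exact p = 0.75). The sign of the differences of p53-/-, MMTV-HRas and MMTV-Wnt1 also changed with tumors left out, and without Wnt_4635 that of MMTV-Wnt1 was -0.05. BRCA1-/-;p53+/-, p53-/- and MMTV-HRas share no slide with another model, so for these 3 the slide and the model cannot be told apart.

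The segments show which tumors carried these shifts and over how much of the chromosome. A tumor was counted as having a gain when at least 10% of the chromosome 8 regions lay in segments with a mean of at least 0.2, and a loss was counted in the same way at -0.2. A gain was present in 9 of 45 tumors, or 20% (exact Clopper-Pearson 95% interval 9.58 to 34.6%), and over all autosomes and tumors this share was 17.2%. A loss was present in 3 of 45 tumors, or 6.67% (1.40 to 18.3%), beside a share of 13.2% over all autosomes. Therefore chromosome 8 was gained about as often as the average autosome, ranking 8th of 19 for gains and 13th for losses. The count of losses was 1 after normexp background correction and in the authors' intervals, and 7 at a limit of 0.15 in place of 0.2. The count of gains was 5 when 50% of the regions were required, and without Wnt_4635, the noisy arrays and the near-identical arrays it was 6 of 35. Either change was present in 10 tumors and neither in 35. Its mean also varied little among tumors, with an SD of 0.14, the 17th of the 19 autosomes.

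The whole chromosome was gained in 4 tumors, which the labels place in 4 models, and lost in 1. These were H2NA with a segment mean of 0.37, Hras_An3_3 with 0.42, Wnt_4635 with 0.28 and P53_5809 with 3 segments between 0.20 and 0.47. The medians of these 3 segments were 0.11, 0.33 and 0.17. The model of Wnt_4635 is in doubt, as its Wnt1 region was not raised, and the array of P53_5809 is noisy, which leaves H2NA and Hras_An3_3 without either reservation. In each of them the mean of chromosome 8 ranked between 3rd and 5th of the 19 autosomes of the same tumor, and other autosomes were gained too, over 12.2% to 41.1% of their regions. P53_1573 had a mean of at most -0.2 over 99.7% of the regions, and chromosome 8 was the lowest of its 19 autosomes. C3TAg_8_RPT just passed the limit, with 89.5% of its regions in a segment at 0.20. Just outside the limit of a loss were Hras_An1_3 with a mean of -0.18, Brcap53_682 with -0.16 over 1795 regions, Hras_An4_3 with a mean of -0.15, H2N64 with 8.94% of its regions lost and Wnt_4679 with 8.24% lost. Outside the limit of a gain was H2N61 with a mean of 0.15.

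Parts of the chromosome were altered in the remaining tumors, all of them labelled as Brca1-deleted or p53-/-. P53_2979 had 30.03% of its regions gained, between 18710513 and 72746527, at a mean of 0.30 and a median of 0.17. P53_5809 was highest over the same stretch, at a mean of 0.47 and a median of 0.33. Both are among the 5 noisy arrays, and their chromosome 8 bins correlated with r = 0.859. Segments also ended between 72548030 and 72761125 in Haras_An5_3RPT, C_Myc_04005648, PyMt_3 and H2N64. Of the Brca1-deleted tumors, Brcap53_682 had 13.95% of the regions gained, Brca_14 had 39.6% gained and 60.4% lost, and Brca_54 had 30.2% gained and 61.2% lost. Only Brca_14 and Brca_54 reached the limits of both a gain and a loss. No MMTV-PyMT tumor of 9 and no MMTV-Myc tumor of 5 reached either limit, which with these numbers allows shares of up to 33.6% and 52.2% (upper bound of the exact 95% interval). In the authors' own intervals, 8 of the 9 gains were present at the same limits, all but that of P53_2979, and 2 others were listed, in C3TAg_5RPT and P53_8546. The only loss there was that of Brcap53_682, over 84.9% of all 2148 regions, which lay at -0.16 here.

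**Figure D2:**
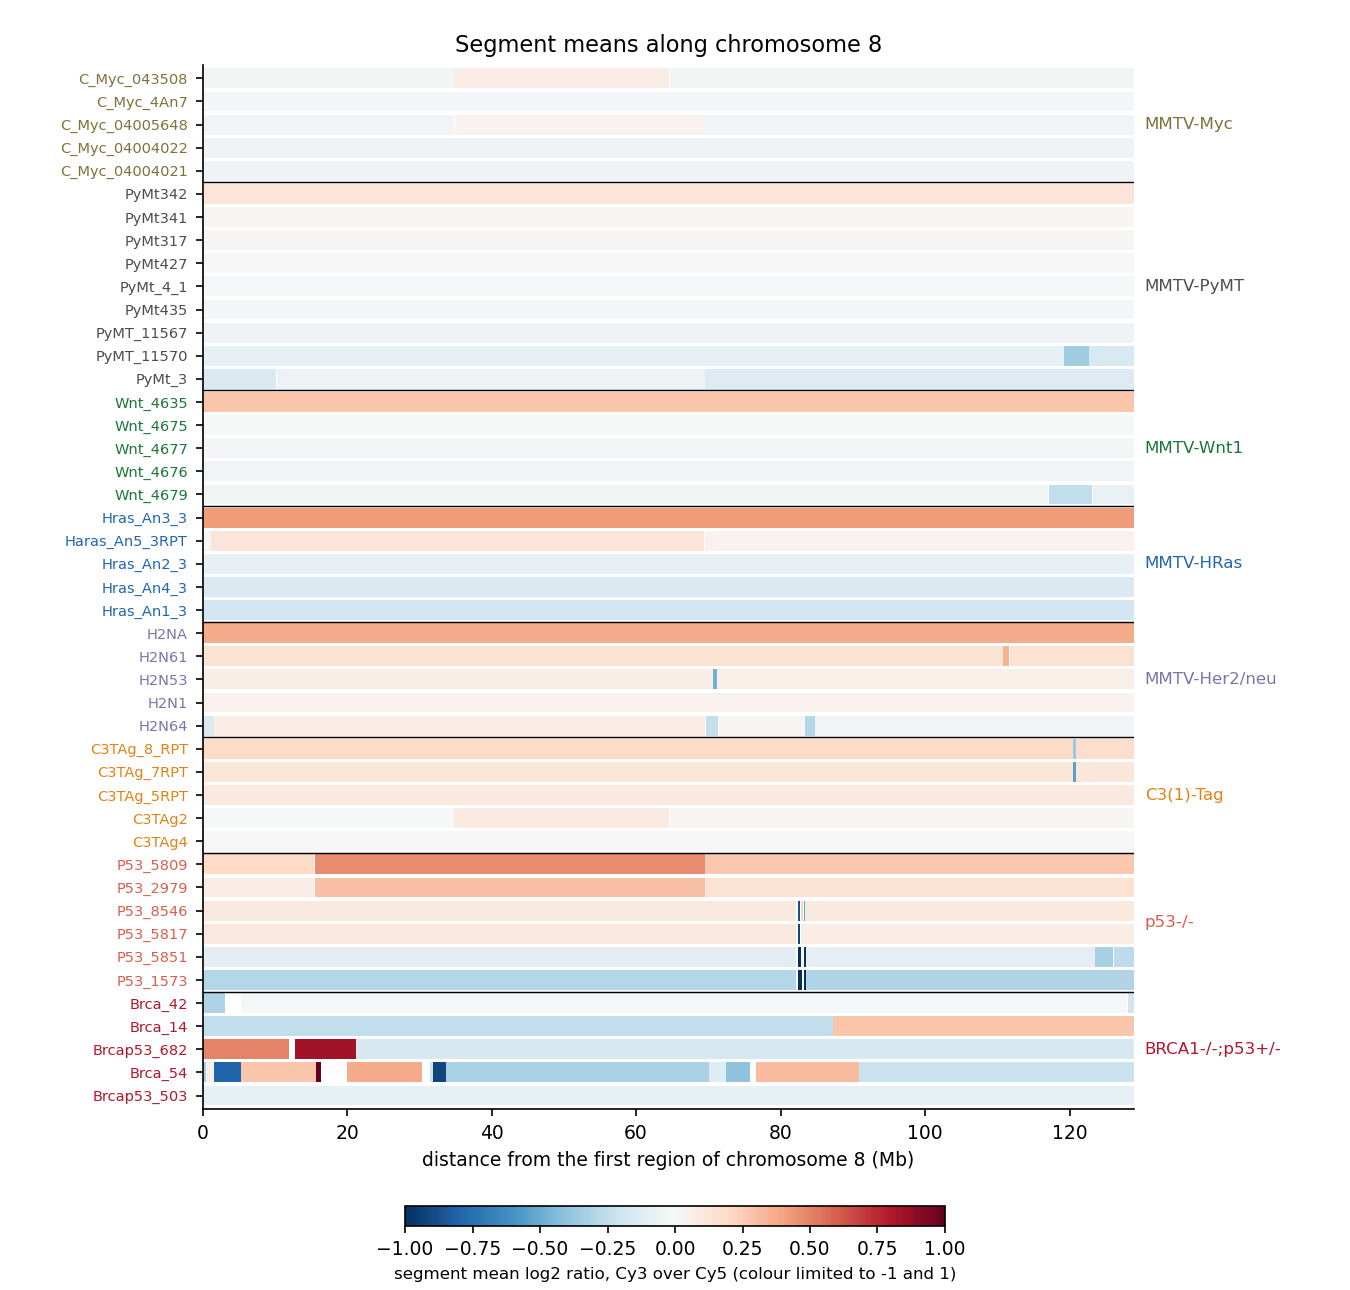
Segment means along chromosome 8 in each of the 45 tumors (rows, grouped by model), with position in Mb on the horizontal axis. Colour gives the log2 ratio of Cy3 over Cy5, limited to 1 in either direction, and white gaps are stretches between segment ends without regions. Whole-chromosome gains appear in single rows of 4 labelled models, whereas the rows of 3 Brca1-deleted tumors change colour along the chromosome.

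Apart from the Brca1-deleted tumors, the proximal and distal sides moved together. Each side holds 1074 regions, divided at 79991684. Over the 45 tumors the means of both sides had a Pearson r of 0.857, and it was 0.984 over the 40 tumors of the other models. These values describe regions of the same arrays, which share noise and centring. The distal minus the proximal mean was 0.41 in Brca_14 and -0.24 in Brcap53_682, the extremes of the series. In the model as a whole it was 0.04 ± 0.24 (SD, n = 5; exact sign-flip test, p = 0.75). In p53-/- it was small but below 0 in 6 of 6 tumors, at -0.04 ± 0.02 (exact p = 0.03125, which is the smallest that 6 tumors can give, adjusted p over the models = 0.25). Over all tumors it was -0.01 (permutation test with 100000 draws, p = 0.628), and without Brca_14 alone it was -0.02 (p = 0.00819).

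A breakpoint was counted where neighbouring segments differed by at least 0.2. There were 47 in 17 tumors, or 0.365 per Mb, which ranks chromosome 8 7th of 19. The p53-/- tumors held 18 and the Brca1-deleted tumors 15, 11 of which were in Brca_54. The bins at 85 and 86 Mb held 6 and 9 breakpoints, all in p53-/- tumors apart from that of H2N64. Those of p53-/- lie in a stretch whose low values were concentrated in few regions, as described below. The others were 8 in MMTV-Her2/neu, 4 in C3(1)-Tag and 1 each in MMTV-PyMT and MMTV-Wnt1. No breakpoint was found in MMTV-HRas or MMTV-Myc, and in 23 tumors the chromosome was a single segment. The number depends on the statistic that a split must pass, with 96 breakpoints at a lower and 18 at a higher setting. It was 26 after normexp background correction, and 306 when isolated regions were not capped before segmentation, a step chosen after seeing the data.

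Brca_14 had the simplest of the large rearrangements. Between Cbln1, a secreted protein of synapses, and AK137304, its level went from -0.25 over 1298 regions to 0.28 over 850. The change lies between 90359827 and 90408080, with the proximal side lost and the distal side gained. Brcap53_682 was gained at the other end. Its log2 ratio was 0.50 over the first 209 regions, up to Myom2 at 15114630, and 0.84 over 82 regions from 15892521 to 24398619. The rest of the chromosome was at -0.16. The higher segment holds 58 gene names, among them Csmd1 and Mcph1, a gene of chromosome condensation, the beta-defensins, Ikbkb, a kinase that activates NF-kappa B, and Plat, the tissue plasminogen activator. Insr was also at its highest of all tumors in Brcap53_682, at 0.58.

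Brca_54 had 13 segments on chromosome 8, the most of any tumor, alternating between gain and loss. The first 18 regions had a mean of -0.34 but a median of -0.17. From Shcbp1 at 4755327 to AK082314 at 8427900, 10 regions had a mean of -0.80. A gain of 0.28 followed over 156 regions. Next to it lay the highest segment of the chromosome in any tumor, at 1.36 ± 0.39 (SD over 25 regions), from 18844614 to 19496644. These 0.652 Mb hold 17 gene names, from AK036041 and Agpat5, an acyltransferase of lipid synthesis, through Xkr5 to a run of beta-defensins that ends at Defb7. Its highest region was Defb39 at 1.86. The gain continued at 0.37 over 193 regions, which begin at Defb1 and hold further defensins, and at Wrn, the helicase gene of Werner syndrome, it gave way to losses.

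The deepest loss of Brca_54 by segment mean was between 35104719 and 36843447. By the median, the segment from Shcbp1 to AK082314 was lower, at -0.77. The 35 regions from 35104719, over 1.74 Mb, had a mean of -0.91 and a median of -0.55, which differ because a few regions were far lower, down to -4.04 at AK018937. Their segment holds Gsr, which encodes glutathione reductase, Rbpms, an RNA-binding protein, Dctn6, a dynactin subunit, Leprotl1, Dusp4, a phosphatase that inactivates MAP kinases, and Tnks, tankyrase. It was followed by -0.33 over 411 regions, and further on a gain of 0.32 over 275 regions between 79804881 and 93954246 interrupted the lower levels.

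The same 2 stretches were compared across tumors. At the amplified stretch of Brca_54 (1.36) the other Brca1-deleted tumors were at 0.75 in Brcap53_682, -0.05 in Brca_42, -0.07 in Brcap53_503 and -0.19 in Brca_14, so the stretch was high in 2 of the 5. Tumors of other models reached 0.61 in P53_5809, 0.53 in Hras_An3_3, 0.39 in P53_2979 and 0.39 in H2NA. At the deepest loss, in contrast, all 5 Brca1-deleted tumors were below 0, from -0.91 to -0.26, with a mean of -0.47 ± 0.27 (SD). Model means there were between -0.03 and 0.17 in the other 7 models, and the lowest single tumor among those was at -0.46, in p53-/-. Below 0 were also 4 of 6 p53-/- and 3 of 5 MMTV-HRas tumors. The AK018937 region at 35196912 was at -2.25 in P53_1573, -1.63 in P53_5817, -2.26 in P53_5851 and -1.40 in P53_8546. It was at 0.57 in P53_2979 and 0.50 in P53_5809. Since the stretch was chosen by its level in Brca_54, these are descriptions without a test.

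**Figure D3:**
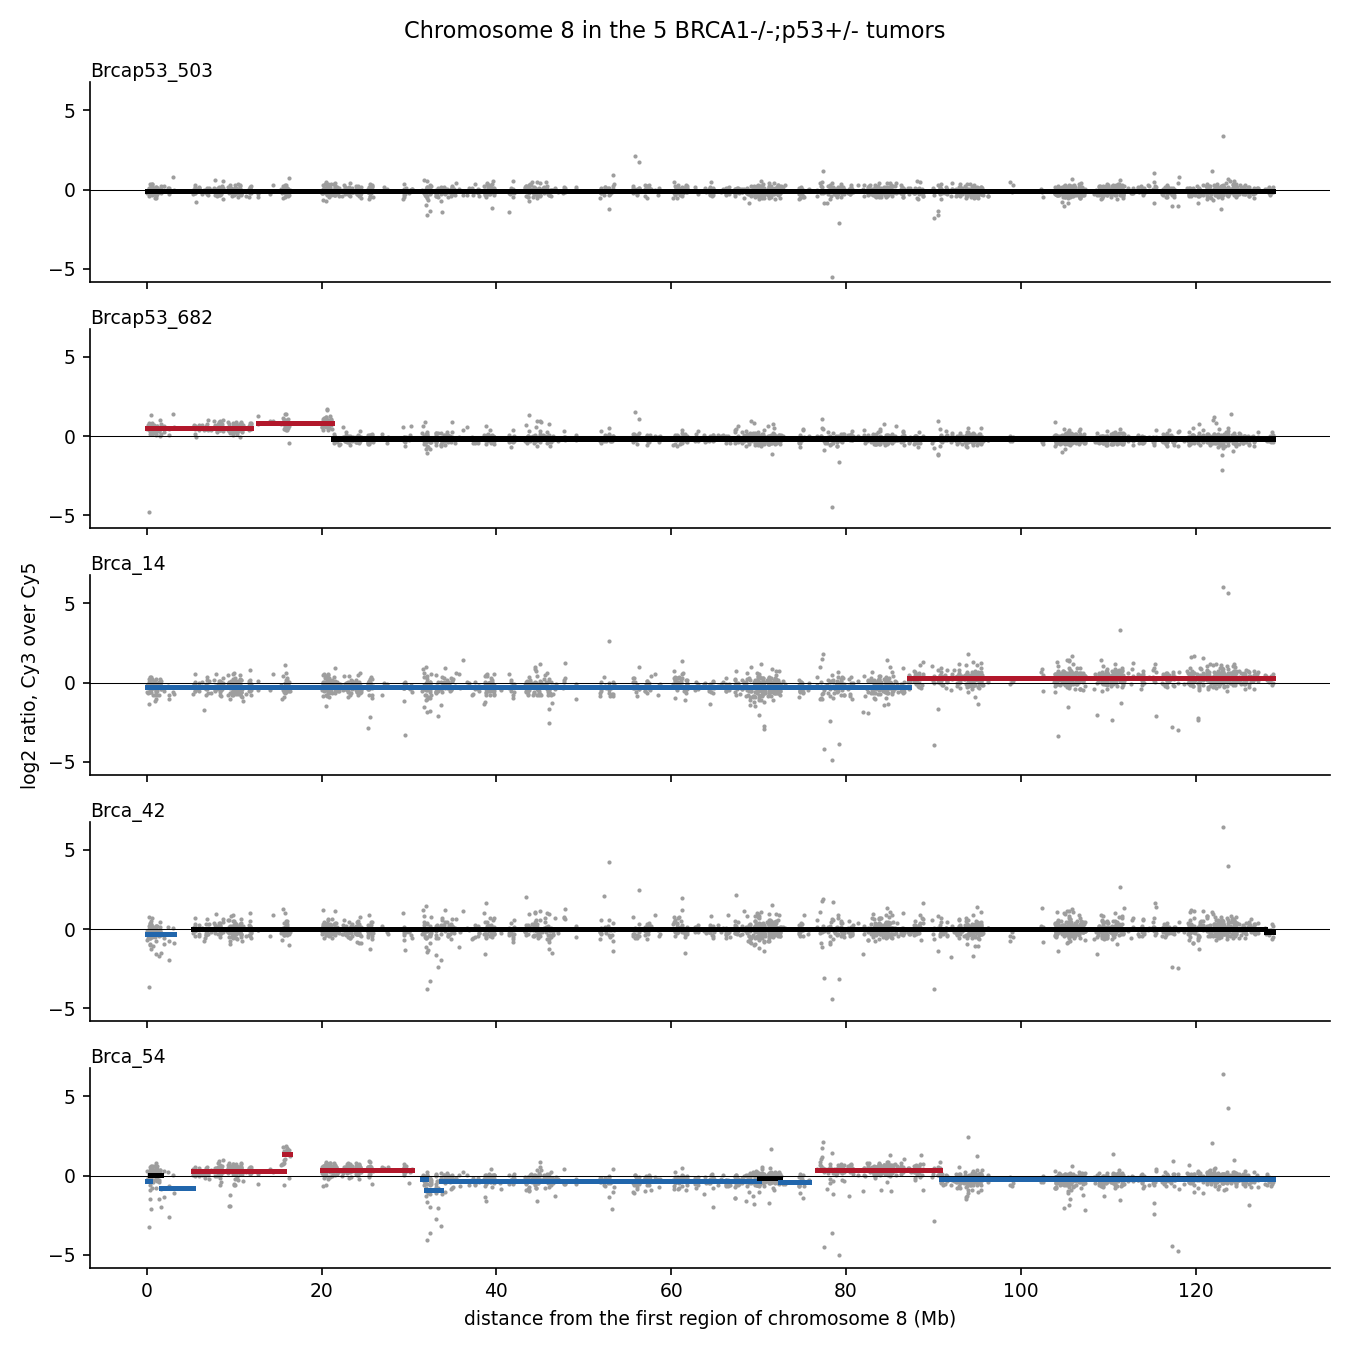
Chromosome 8 in the 5 Brca1-deleted tumors, 1 panel each, with position in Mb on the horizontal axis and the log2 ratio of Cy3 over Cy5 on the vertical axis. Points are the regions with a value, 2086 in Brcap53_682 and 2148 in the others, and lines are segment means. Brca_54 alternates between gain and loss with a peak of 1.36 near 19 Mb, Brca_14 steps once from -0.25 to 0.28 near 90 Mb, Brcap53_682 is gained up to 24 Mb, and Brcap53_503 is flat.

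Breakpoints of different tumors fell into the same 1 Mb bin in 7 places. The bin at 85 Mb was shared by P53_1573, P53_5817, P53_5851 and P53_8546, all of which had a boundary between Il15 at 85304363 and the next region at 85578380. Boundaries at 86 Mb occurred in 3 of these tumors and in H2N64. At 18 Mb they were found in Brca_54, P53_2979 and P53_5809, between the same pair of genes, Csmd1 and Mcph1, in the last 2. C3TAg_7RPT and C3TAg_8_RPT shared both ends of a small loss at 123 Mb, from Irf8, a transcription factor of myeloid cells, to Foxf1a, a forkhead factor of mesenchyme. It covered 6 regions, at -0.55 in the first tumor and -0.37 in the second. The same 6 regions were at -0.59 in PyMT_11570, -0.53 in PyMT_11567 and -0.45 in Wnt_4679, so that they were as low in tumors of other models. The arrays of PyMT_11570, PyMT_11567 and Wnt_4679 lie on the same slide, and those of C3TAg_7RPT and C3TAg_8_RPT share another. An effect of the slide was not tested. The remaining shared bins were at 4 Mb (Brca_54 and H2N64, at Shcbp1), at 72 Mb (H2N64 and P53_5809, at Edg4) and at 74 Mb. At 74 Mb, H2N53 had 18 regions at -0.48 from Kcnn1 to Ocel1, with a median of only -0.10, and H2N64 had 114 regions at -0.24 from Pbx4. Among smaller changes was a gain of 0.35 over 36 regions in H2N61, between Ddx19b and Chst5. PyMT_11570 had a segment at -0.36 over 119 regions from Efcbp2. It lies within a segment of Wnt_4679, an array of the same slide. That segment was at -0.25 over 177 regions from BC011297, with a median of -0.18. In P53_5851, 74 regions after Rab4a, an endosomal GTPase, had a mean of -0.33 but a median of -0.18. In Brca_42 the first 79 regions of the chromosome, up to 6221323, had a mean of -0.31 and also a median of -0.18.

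Chromosome 8 held 11 segments shorter than 5 Mb with a mean of at least 0.5 in size. Of the other autosomes 8 had fewer, 3 had as many and 7 had more, with counts from 3 to 93. Of the 11, 3 were in Brca_54, 1 in C3TAg_7RPT and 7 in the 4 p53-/- tumors that share the boundary at 85 Mb. Those 7 lie in the stretch described below, whose low values were concentrated in few regions. Only the segment of beta-defensins in Brca_54 was a gain.

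Bins of 1 Mb were then compared between models with limma, in a fit over all 2056 autosomal bins, 102 of which lie on chromosome 8. By the F test over the 8 models 7 of the 102 differed (6.86%), against 19.4% of all autosomal bins, and 16 had an unadjusted p below 0.05. With each model set against the mean of the other 7, 11 bins were lower in the Brca1-deleted tumors than in the others. This is 11 of 102, beside 2.09% of all autosomal bins in that contrast, and 35 had an unadjusted p below 0.05. None was higher in this model at the adjusted threshold, with 2 at an unadjusted p below 0.05, beside 0.389% of all bins. In p53-/- 1 bin was lower, with 5 at an unadjusted p below 0.05 and a background of 4.82%, and none was higher, with 4 unadjusted and a background of 2.29%. The limma fit called no bin in the other 6 models, where over all autosomes 3.51% of the bins were called in either direction. Of their bins on chromosome 8, 11 were higher in MMTV-Her2/neu, 3 were higher in MMTV-Wnt1, 1 was higher in C3(1)-Tag and 3 were lower in MMTV-PyMT at an unadjusted p below 0.05.

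The 11 lower bins of the Brca1-deleted tumors lie between 5 and 79 Mb, on the proximal side. The largest difference was at 5 Mb, at -0.41 (SE 0.10, adjusted p = 0.0265), where the only named gene is Slc10a2, the bile acid transporter of the ileum. The values there were 0.11 in Brcap53_503, 0.43 in Brcap53_682, -0.52 in Brca_14, -0.74 in Brca_42 and -0.68 in Brca_54, so that 2 of the 5 tumors lay above 0. In the bin at 35 Mb, with 28 regions, all 5 were below 0, at -0.16, -0.27, -0.34, -0.31 and -0.34 in the same order, and the difference was -0.34 (SE 0.07, adjusted p = 0.0210). That bin contains Gsr, Rbpms, Dctn6 and Leprotl1. It lies in the deepest loss of Brca_54, and the next bin, with Dusp4 and Tnks, also differed by -0.34.

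The other 8 bins had differences of -0.36 to -0.26. They carry Tusc3, a subunit of the glycosylation machinery that is often lost in human tumors, at 40 Mb, Msr1, a scavenger receptor of macrophages, and Cnot7, a deadenylase, at 41 Mb, Ing2, a chromatin reader, at 49 Mb, and Neil3, a DNA repair glycosylase, and Vegfc, a lymphatic growth factor, at 55 Mb. Further bins hold Adam29 and Glra3 at 58 Mb, the neuropeptide Y receptor genes Npy5r and Npy1r at 69 Mb, Hmox1, heme oxygenase, at 77 Mb and Mcm5, a subunit of the replication helicase, at 78 Mb. The bin at 78 Mb was nearest to the threshold, with an adjusted p of 0.0474. In none of the 11 bins were the 5 tumors free of overlap with the other 40 (beside 0.0% of all autosomal bins called lower and below every other tumor), since single tumors of other models reached as low as -0.45.

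Single tumors and the background correction decided this count. No bin was called without Brca_14 or without Brca_54, 2 were without Brca_42 and 3 without Brcap53_682, while 17 were without P53_1573. After normexp background correction no lower bin was called, and with density-peak centring or with scan date as a random block 7 were. The Brca1-deleted arrays share no slide and no scan date with another model, so such a block cannot separate either from the model. The count of bins that differ between models was 2 without Brca_14 and 4 without Brca_54, but 11 without Hras_An3_3 and 12 without P53_1573. It was 0 without the 4 near-identical arrays, 1 with normexp, 1 with density-peak centring and 13 without the noisy arrays.

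**Figure D4:**
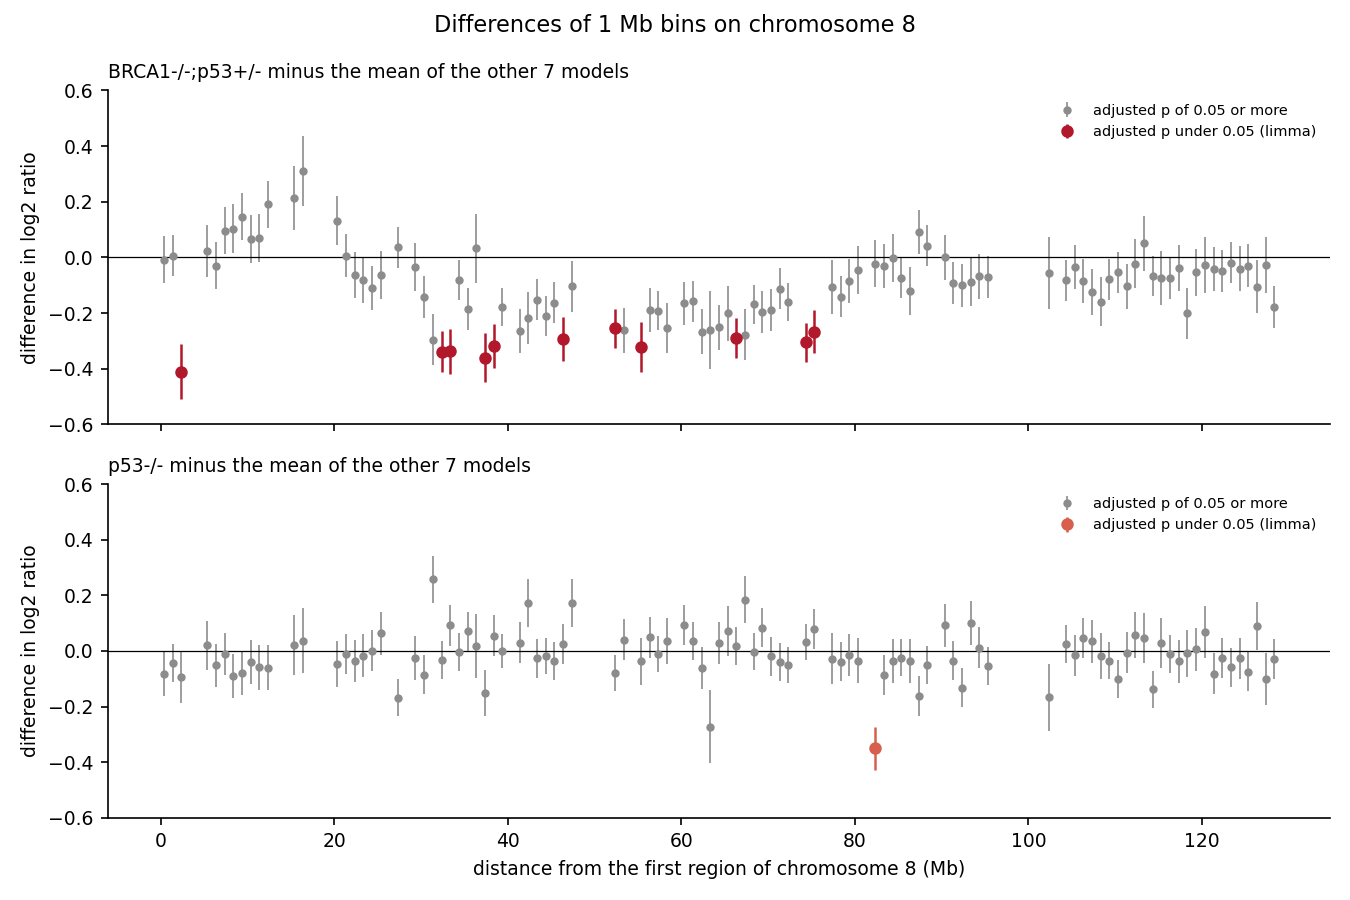
Difference of BRCA1-/-;p53+/- and of p53-/- from the mean of the other 7 models in the 102 chromosome 8 bins of 1 Mb, with position in Mb on the horizontal axis and the log2 difference on the vertical axis. Filled points mark bins with an adjusted p under 0.05 in limma. The 11 filled points of BRCA1-/-;p53+/- lie below 0 on the proximal side and the 1 of p53-/- lies at 85 Mb.

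The bin lower in p53-/- was that at 85 Mb, with a difference of -0.35 (SE 0.08, adjusted p = 0.00421). It holds Il15, an interleukin of lymphocytes, Zfp330 and Rnf150, a ring finger protein. In P53_1573 the low level ran with an interruption from 85578380 to 86604240, a stretch of 1.03 Mb with 32 regions and 18 gene names. Over this stretch the mean was -0.82 in P53_1573, -0.78 in P53_5851, -0.33 in P53_8546 and -0.32 in P53_5817, but 0.12 in P53_2979 and 0.23 in P53_5809. The last 2 tumors were therefore above 0 and the others below it. The means of the other models were between -0.09 and 0.10.

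Within the stretch the low values were concentrated in few regions. Of the 32, 5 were lower than the chromosome 8 mean of the tumor by 1 or more in at least 3 of the 4 tumors below 0. They are an unnamed region at 85578380 and 1 region each of Zfp330, Rnf150, Scoc, a coiled-coil protein of the Golgi, and Gipc1, an adaptor of receptor trafficking. Their mean was -2.82 in P53_1573, -1.68 in P53_5817, -3.61 in P53_5851 and -1.68 in P53_8546. The other 27 regions had means of -0.45, -0.06, -0.26 and -0.08 in the same order, much closer to the mean of chromosome 8 in these tumors, at -0.31, 0.09, -0.12 and 0.09.

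Rnf150 and Scoc show this at neighbouring regions of 1 gene. At the Rnf150 region at 85855118 the p53-/- tumors were at -3.10 in P53_1573, -0.21 in P53_2979, -0.06 in P53_5809, -2.09 in P53_5817, -4.30 in P53_5851 and -2.06 in P53_8546. At the Rnf150 region at 85755681 the same tumors were at -0.69, -0.16, -0.19, -0.56, -0.57 and -0.50. The Scoc region at 86340161 was at -5.18, 0.08, 0.30, -2.16, -6.74 and -1.99, and that at 86328704 at -0.52, 0.34, 0.32, -0.49, -0.42 and -0.32. So in both genes 1 region fell far below the other in 4 tumors and not in P53_2979 or P53_5809. No tumor of another model was below -0.82 at the Rnf150 region at 85855118 or below -0.36 at the Scoc region at 86340161.

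**Figure D5:**
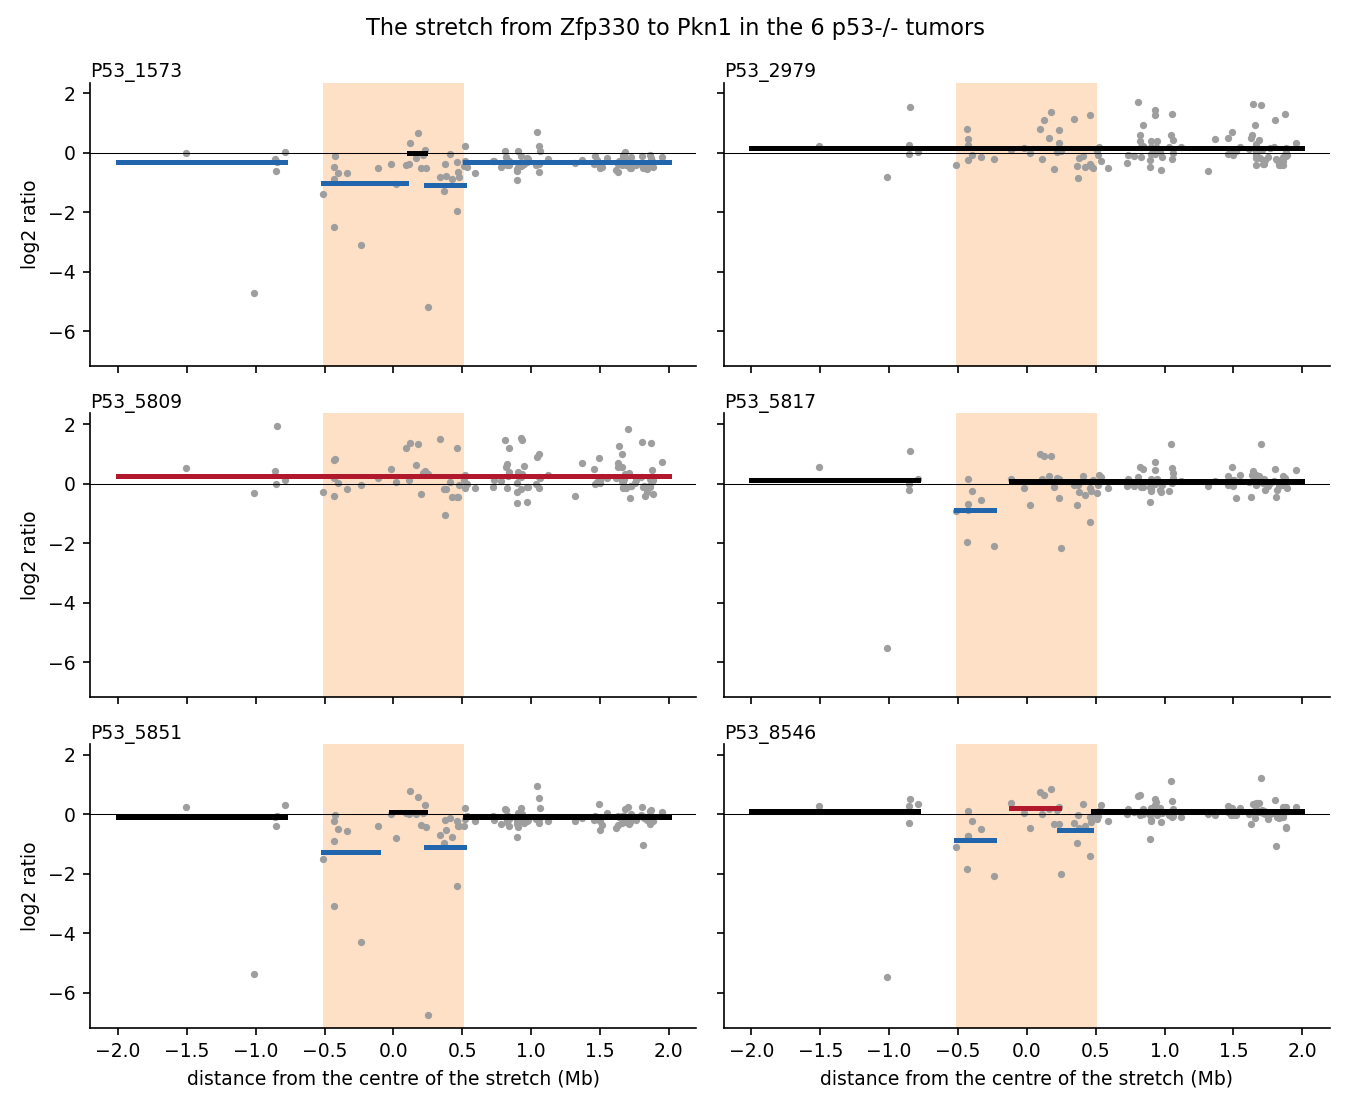
Log2 ratio of Cy3 over Cy5 around 85 to 87 Mb of chromosome 8 in the 6 p53-/- tumors, 1 panel each, with position in Mb on the horizontal axis. Points are regions, the shaded band is the stretch of 1.03 Mb, and lines are segment means, red at 0.2 or above, blue at -0.2 or below and black between. In 4 tumors a few points fall below -1 and below most of their neighbours. Within the band none falls below -1 in P53_2979 and 1 does in P53_5809, a Gpsn2 region at -1.06.

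The pattern of single low regions was not confined to that stretch. Along chromosome 8, 20 regions were at -1 or lower in at least 4 p53-/- tumors, a share of 20 in 2148 beside 0.512% of all autosomal regions. In every case the 4 tumors were P53_1573, P53_5817, P53_5851 and P53_8546, and none of the 20 was at -1 or lower in P53_2979 or P53_5809. For 11 of the 20, no tumor of another model was that low, beside 0.246% of all autosomal regions. The 20 regions are spread from Adrb3 at 28693670 to 1700008F21Rik at 132002881. Zfp423, a zinc finger factor of fat cell precursors, was among the 11. Adrb3, an adrenergic receptor of fat cells, was as low in 12 tumors of other models and Cog2, a Golgi tethering subunit, in 3, and of 2 regions named Odc1 that at 126031952 was so in 1. The Cog2 region at 127433177 was at -6.35 in P53_1573, -4.47 in P53_5817, -6.37 in P53_5851 and -4.57 in P53_8546, and the 1700008F21Rik region at 132002881 at -4.96, -5.89, -6.42 and -4.90. This count was made after the values had been seen.

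Brca1-deleted tumors had 9 such regions in at least 4 of the 5, beside 0.0738% of all autosomal regions, and 6 of the 9 were in no other model, beside 0.0369%. The lowest was 1 of the 2 regions of Slc10a7, a membrane transporter needed for bone development. That region was at -5.52 in Brcap53_503, -4.49 in Brcap53_682, -4.90 in Brca_14, -4.39 in Brca_42 and -3.60 in Brca_54, while the other 40 tumors lay between -0.74 and 1.58. Its second region, at 81555422, was at 0.40, -0.10, 0.50, 0.62 and 1.45 in the same order. Hence the regions of Slc10a7 moved apart within every tumor of the model. MMTV-Her2/neu and MMTV-PyMT had 4 such regions each, beside 0.177% and 0.0566% of all autosomal regions, and each of these was as low in some tumor of another model.

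Genes were tested with the same contrasts, taking the mean of the regions that carry 1 name and adjusting over 19814 autosomal genes. Of the 1043 genes of chromosome 8, 70 were lower in the Brca1-deleted tumors (2.88% over all autosomes) and 7 were higher (2.34%). In p53-/- 49 were lower (7.57%) and 56 were higher (9.1%). As shares of the chromosome 8 genes these are 6.71% lower in the Brca1-deleted tumors, and 4.7% lower and 5.37% higher in p53-/-. In MMTV-HRas 6 were lower (1.68% over all autosomes), among them Cul4a and Ces1, and none was higher, with 15 at an unadjusted p below 0.05 (2.99%). None of these 6 passed with the slide as a random block, and 2 genes did without the 4 near-identical arrays. The limma fit called no gene in the other 5 models, where 0.258% were called over all autosomes and between 3 and 95 genes of chromosome 8 per model and direction had an unadjusted p below 0.05. The 70 lower genes of the Brca1-deleted tumors had a median difference of -0.43. Of these, 22 lie in a lower bin, and of the 46 with more than 1 region 32 had every region past -0.2. Of the 70, Slc10a7 and Ednra had no overlap between the 5 tumors and the other 40, beside 0.0353% of all autosomal genes. The counts fell to 40 lower and 2 higher genes in the Brca1-deleted tumors and to 29 lower and 37 higher in p53-/- with the slide as a random block. Without the 5 noisy arrays only 5 genes were higher in p53-/-, with P53_2979 and P53_5809 among the arrays left out, and 37 were lower. None of the 8 members of gene lists named below as higher in p53-/- passed without these arrays, with adjusted p-values from 0.176 to 0.727, and neither did Pdgfrl among the lower ones (0.605).

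Some of the lower genes of the Brca1-deleted tumors were low in both of their regions, although Gsr and Rbpms were also called lower in p53-/-, by -0.41 (adjusted p = 0.00319) and -0.32 (adjusted p = 0.019). With the slide as a random block the call of Rbpms in p53-/- was lost (adjusted p = 0.0515). Gsr had a difference of -0.94 (SE 0.10, limma adjusted p = 2.64e-08), and its region at 35133584 was at -0.99, -0.80, -0.50, -0.59 and -0.81 in Brcap53_503, Brcap53_682, Brca_14, Brca_42 and Brca_54. Rbpms differed by -0.71 (SE 0.10) and was at -0.68, -0.72, -0.90, -1.34 and -1.12 at 35363511. Cnot7 differed by -0.51 (SE 0.09) and had values of -0.32, -0.52, -0.67, -0.57 and -0.46 at 41998201. In these 3 genes every region was below 0 in every tumor of the model. By contrast, Ednra, the endothelin receptor A, differed by -1.48 (SE 0.15, adjusted p = 3.73e-09) through its region at 80596510, which was at -0.87, -0.86, -4.20, -3.10 and -4.48, while its region at 80587726 was at -0.17, -0.30, -0.48, -0.11 and 0.20. Taf5l, a subunit of a histone acetyltransferase complex, was the gene most raised in the Brca1-deleted tumors, by 1.52 (SE 0.21), again through 1 region, at 0.68, 0.49, 5.65, 3.96 and 4.24 against 0.16, -0.15, 0.53, 0.09 and -0.05 in the other.

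Gene lists on chromosome 8 are given by the number of their members that passed the test in the Brca1-deleted tumors and p53-/-, to be read against the shares of all chromosome 8 genes above, and by the median of the members' mean levels. Over all 1043 genes that median was -0.05 in the Brca1-deleted tumors, 0.01 in p53-/-, 0.10 in C3(1)-Tag, 0.13 in MMTV-Her2/neu, 0.01 in MMTV-HRas, 0.04 in MMTV-Wnt1, -0.03 in MMTV-PyMT and -0.03 in MMTV-Myc.

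A list of proximal genes, most of which lie in man at the end of the long arm of chromosome 13, had 0 of 18 called in either model, and Cul4a was lower in MMTV-HRas, by -0.38 (SE 0.11, adjusted p = 0.0446). This call was lost with the slide as a random block. The list includes Insr, Col4a1, Cul4a, a ubiquitin ligase scaffold, and Gas6, the ligand of the Axl receptor family. Its median was 0.08 in the Brca1-deleted tumors, above that of all genes, and Insr had a mean of -0.20 ± 0.49 (SD, n = 5) in this model, with the tumors on both sides of 0. Among 16 genes like the outer short arm of human chromosome 8, Cnot7 and Tusc3 were lower in the Brca1-deleted tumors. In p53-/-, Vps37a, of endosomal sorting, and Lpl, lipoprotein lipase, were higher and Pdgfrl was lower. The call of Lpl was lost with the slide as a random block (adjusted p = 0.1) and without the near-identical arrays (0.0788). Dlc1, a tumor suppressor gene of the same list, had a mean of -0.05 ± 0.07 in the Brca1-deleted tumors and 0.13 ± 0.16 in p53-/- and did not pass.

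Of 26 genes like the inner short arm of human chromosome 8, which is amplified in a share of human breast cancers, none was higher in the Brca1-deleted tumors and Dusp4 and Thap1 were lower. Wrn was higher in p53-/-, by 0.54 (SE 0.15, adjusted p = 0.0102), and no gene was lower. The highest value of Ikbkb in any tumor was 0.80 and that of Plat 0.96, both in Brcap53_682, and the highest of Eif4ebp1, a translation inhibitor, was 0.68, in P53_2979. The medians of the list were between -0.10 in MMTV-Myc and 0.16 in MMTV-Her2/neu.

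The 6 cadherins did not pass in either model. Cdh1 ranged from -0.48 in Brca_54 to 0.41 in Hras_An3_3, with a median of -0.02. Its mean was -0.27 ± 0.17 (SD, n = 5) in the Brca1-deleted tumors, a difference of -0.28 (SE 0.09, adjusted p = 0.0613), and between -0.10 and 0.11 in the other models. Of 21 tumor suppressors and genes of genome stability, Tusc3 was lower in the Brca1-deleted tumors, and in p53-/- Wrn was higher and Wwox lower. Wwox, an oxidoreductase at a fragile site, had a mean of -0.36 ± 0.09 (SD, n = 6) in p53-/- and a difference of -0.39 (SE 0.09, adjusted p = 0.00302), with all 6 tumors below 0. Ctcf ranged from -0.58 in Brca_54 to 0.65 in H2NA, and Cbfb, a partner of the Runx factors, from -0.38 in PyMt_3 to 0.62 in P53_5809. The name of no region on chromosome 8 matched the 3 listed Jun family names.

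Of 18 genes of growth factor and kinase signaling, Ednra, Hhip, which binds hedgehog ligands, and Pik3r2, a regulatory subunit of PI3 kinase, were lower in the Brca1-deleted tumors, and Pdgfrl was lower in p53-/-. The differences of Hhip (-0.35, SE 0.11) and Pik3r2 (-0.32, SE 0.10) were close to the threshold, with adjusted p-values of 0.0427 and 0.0419. Both calls were lost with the slide as a random block (adjusted p = 0.0974 and 0.08) and without the near-identical arrays (0.0728 and 0.0649), and that of Pdgfrl with the slide (0.0724). Metallothioneins and proteases counted 11, of which Mmp15, a membrane protease, and Mt3 were lower and Mt1 was higher in the Brca1-deleted tumors. The call of Mt1 was lost with the slide as a random block (adjusted p = 0.0576). It rested on 1 region, which was at -0.03 in Brcap53_503, -0.37 in Brcap53_682, 1.80 in Brca_14, 0.24 in Brca_42 and 2.43 in Brca_54, and its neighbour Mt3 was at 0.03, -0.39, -0.29, -0.95 and -0.68. Thus Mt1 was above 0.2 and Mt3 below -0.2 in Brca_14, Brca_42 and Brca_54.

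Transcription factors of blood and endothelium counted 9, and Klf1, of red cell precursors, and Foxf1a were higher in p53-/-, each through 1 region. Klf1 reached 1.85 in P53_5809 and had a mean of 1.00 ± 0.82 (SD, n = 6) in p53-/-. Of 18 distal genes like parts of human chromosomes 1 and 10, Taf5l was higher in the Brca1-deleted tumors, and Rbm34 was higher and Cog2 lower in p53-/-. The call of Rbm34 was lost with the slide as a random block (adjusted p = 0.0704) and without the near-identical arrays (0.0563).

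The beta-defensins had the highest median of the lists in the Brca1-deleted tumors, at 0.30, and 0.15 in p53-/-. Of 19 on the array 17 were tested. Defb4 was higher in the Brca1-deleted tumors, at 0.11 in Brcap53_503, 0.92 in Brcap53_682, 0.16 in Brca_14, 0.22 in Brca_42 and 1.76 in Brca_54, so that the tumors with a proximal gain stood above the others. This call was lost with the slide as a random block (adjusted p = 0.0761). Defb39 and Defb50 were higher in p53-/-, and these calls were lost with the slide as a random block (adjusted p = 0.0878 and 0.0889) and without the near-identical arrays (0.0793 and 0.0716). The single region of Defb39 varied from -1.95 in PyMT_11567 to 1.98 in P53_5809. None of 7 carboxylesterases tested, of 8 on the array, passed in either model, and Ces1 was lower in MMTV-HRas by -0.63 (SE 0.14, adjusted p = 0.0131). That call was lost with the slide as a random block. The medians of the carboxylesterases were between -0.03 in MMTV-Wnt1 and 0.22 in MMTV-Her2/neu. Copies of these clusters are similar in sequence, so a region may not measure the named gene alone.

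Last, regions that stood apart from their segment in many tumors of all models were counted. On chromosome 8, 23 regions were higher than the median of their segment by 0.5 or more in at least 20 of the 45 tumors, beside 0.812% of all autosomal regions, and none was lower in as many, beside 0.0689%. Tlr3, a sensor of double-stranded RNA, and Slc7a6, an amino acid transporter, led with 27 tumors each, followed by BC052897 with 26. Others were Gfod2 and a pair of unnamed regions with 25, Zfp1 with 24, and Cyld, a deubiquitinase, AY512931, D230025D16Rik, Sntb2 and AK037392 with 23 each. Cyld accordingly had a median of 0.27 over the 45 tumors. The other region of Slc7a6 did not take part, with values of 0.08, -0.26, -0.11, -0.30 and -0.27 in the Brca1-deleted tumors against 0.69, 0.11, 1.66, 1.27 and 0.63 in the first. Toward lower values, 1 region of Adrb3 was lower by 1 or more in 16 tumors, AK148814 in 16, 1 region of AK042159 in 14, Prosc in 13, and Ing2 and an unnamed region in 12, in tumors of several models.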

How the data were processed

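The authors extracted tumor DNA, labelled and hybridized it on Agilent 44K arrays and deposited 1 Feature Extraction file per array (version 9.5.1.1 in the file headers, 10.7 per the labels, build mm8). It holds intensity values from which the software subtracted background and which it normalized between dyes, and the deposited log10 ratio of a spot is Cy5 over Cy3. A further table deposited by the authors lists intervals with mean log2 ratios for every tumor. Its column of interval p-values and the tables of single models were not used. Depth is given by the signal, and both channels were well above background in 96.6% to 99.8% of the regions.

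Here ratios were turned (Cy3 over Cy5, chosen after the values were seen), put on a log2 scale and reduced by the autosomal median of the array, without control spots and outlier spots. Circular binary segmentation (Python 3.11.15, numpy 2.4.6, numba 0.67.0) accepted splits at a statistic over 6 with at least 5 regions, on values capped at 3 noise SD from a running median over 11 regions, a step chosen after seeing the data. Segment means are of uncapped values. Bins of 1 Mb with at least 3 regions have the median of their regions. Bins and genes were fitted with limma 3.58.1 in R 4.3.3 with Benjamini-Hochberg adjustment over all autosomes at 0.05. Whole-chromosome means had exact permutation tests (scipy 1.17.1). The arrays lie on 18 slides with at most 4 arrays each and 10 scan dates, and both were tried as a random block (statmod 1.5.0). Segmentation and tests were first tested on simulated data.

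Named genes are members of gene lists, genes at shared boundaries, at the ends and extremes of segments under 5 Mb, with the largest value in a model's most altered bin, or standing apart in at least 20 tumors. Others were chosen after their values were seen. The members and lists were chosen with earlier results of these data known. Across 25 other settings and with each of 45 tumors left out, results were recomputed. A correction for GC content was not run, as no genome of this build was used here.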

Additional observations from a re-analysis of the deposited data

Results flagged for a closer look

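By Dixon's criterion, the gap to the next tumor divided by the range of the model, the chromosome 8 mean of 1 tumor stood apart in 2 models. The criterion is stricter in small groups, and Hras_An3_3 and H2NA, each the highest of 5 tumors, did not meet it. Wnt_4635 was at 0.28 while the next MMTV-Wnt1 tumor was at 0.00 (a gap of 0.867 of the range), and it is the tumor whose Wnt1 region was not raised. PyMt342 was at 0.13 in MMTV-PyMT, where the next was at 0.01 (0.501 of the range in 9 tumors). The distal minus proximal difference of H2N64 was -0.0662, the lowest of the MMTV-Her2/neu tumors by a wide gap, in the tumor that also had 5 of the 8 breakpoints of its model. Over 16 groups of values examined in this way, chance sets aside about 1 in 20.

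In 2 models bins differed from the other models in the limma contrast. These were the 11 bins lower in the Brca1-deleted tumors and the 1 bin lower in p53-/-, both described in the report.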

How the results depend on the processing

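The sign of several chromosome means depended on the processing. For MMTV-HRas against the others it was 0.0297 with density-peak centring, 0.0367 with normexp, 0.0017 without the 4 near-identical arrays and 0.00932 for medians. It was -0.0667 with normexp and -0.0456 without Wnt_4635 for MMTV-Wnt1, -0.0883 without the noisy arrays and -0.00769 for medians for p53-/-, and -0.0565 within slides for C3(1)-Tag. Distal minus proximal turned to -0.0147 with normexp and -0.00273 without the near-identical arrays in C3(1)-Tag, and to -0.000522 for bright spots and -0.00627 without those arrays in MMTV-Her2/neu.

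Losses numbered 1 with normexp, 7 at a threshold of 0.15, 1 in the authors' intervals and 9 with the dyes as labelled, and gains 5 at 50% of the regions and 3 with the dyes as labelled. Breakpoints numbered 26 with normexp, 96 and 18 at split statistics of 5 and 8, and 306 without capping, a setting added after seeing the data, as was leaving out the noisy arrays. Bins that differ between models numbered 1 with peak centring, 1 with normexp, 2 at 2 Mb, 11 for means, 0 without the near-identical arrays and 13 without the noisy arrays. Lower bins of the Brca1-deleted tumors numbered 7 with peak centring, 0 with normexp and 7 with scan date as a block. For p53-/- bins, 1 was higher and 2 lower with normexp, 3 and 3 for means, 1 lower at 2 Mb and 2 lower without the noisy arrays, and in MMTV-Her2/neu 1 was higher with normexp and 1 without the noisy arrays. With slide as a block 2 genes were higher and 40 lower in the Brca1-deleted tumors, and 37 and 29 in p53-/-, and without the noisy arrays 11 were higher in the Brca1-deleted tumors, 5 in p53-/- and 4 in MMTV-HRas. The 6 lower genes of MMTV-HRas became 0 with slide as a block and 2 without the near-identical arrays. The causes were not tested.

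Leaving out each tumor gave ranges of -0.109 to 0.0416 for the MMTV-HRas mean difference, -0.0316 to 0.0939 for p53-/-, -0.0456 to 0.0359 for MMTV-Wnt1, 2 to 12 for bins that differ between models, 0 to 17 lower and 0 to 1 higher in the Brca1-deleted tumors, and 1 to 2 lower and 0 to 3 higher in p53-/-. The higher count was 1 without Brcap53_503 in the Brca1-deleted tumors. In p53-/- it was 3 without P53_1573 and 1 without any of Brcap53_682, Brca_42, C3TAg_5RPT, C3TAg_8_RPT, H2NA, Hras_An3_3, P53_5851 and PyMt342, and the lower count was 2 without P53_2979 or P53_5809. Distal minus proximal ranged from -0.0159 to -0.000928 over all tumors, -0.0568 to 0.107 in the Brca1-deleted tumors, -0.000453 to 0.00762 in C3(1)-Tag, -0.00619 to 0.0188 in MMTV-Her2/neu and -0.00652 to 0.00249 in MMTV-PyMT. No paired analysis was possible because the replicate numbers only name the tumors. Whether shallow segments were missed on the noisy arrays was not tested.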

Other observations

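For each model, the gene of the most extreme region in the bin altered in most of its tumors was as follows. In the Brca1-deleted tumors it was Slc10a2, with a mean of -0.42 and the bin lost in 3 tumors and gained in 1, and in p53-/- Rnf150, with a mean of -1.97 and the bin lost in 4 and gained in 1. In MMTV-Her2/neu it was AK042159 at -1.78 and in MMTV-Wnt1 BC038819 at -0.45, each in a bin gained in 1 tumor and lost in 1 other, the first of 5 and of 7 tied bins. In C3(1)-Tag (M10062 at 0.31), MMTV-HRas (Insr at -0.35) and MMTV-PyMT (AK037392 at 0.71) no bin was altered in more than 1 tumor, so the first of 94, 102 and 4 tied bins along the chromosome was taken. In MMTV-Myc no bin was altered.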
